A study of Mus musculus with 20 samples.

Results

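The mitochondrial respiratory chain genes were taken as the genes on the array whose symbols begin as the names of the nuclear subunits of complexes I to V do (Nduf followed by a, b, c, s or v and a digit, Sdha to Sdhd, Uqcr, Cox4 to Cox8, and Atp5). The rule found 85 genes of 31093 gene names on the array, with 117 probes, and the probe with the highest mean signal stood for each gene. There were 37 genes of complex I, 4 of complex II, 8 of complex III, 18 of complex IV and 18 of complex V. Of these, 83 passed the filter on signal. The other 2, Cox7b2 and Cox8c, are known as testis forms and were tested in no comparison.

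RNA was measured in whole blood of male mice aged 8 to 10 weeks, drawn by cardiac puncture into PAXgene tubes and depleted of globin transcripts, on 20 single-colour arrays. The mice were labelled WT (C57BL/6) or Il10-/-. The latter carry the targeted interleukin-10 allele of strain B6.129P2-Il10tm1Cgn/J in all cells and serve as a model of inflammatory bowel disease. Each genotype was given a sham exposure (0 Gy) or 7 Gy of whole-body X-rays and bled 24 h later, with 5 mice in each of the 4 groups. Blood is a mixture of cells, so fewer cells of a type and less RNA per cell cannot be told apart.

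Complexes I to IV carry electrons from NADH and succinate to oxygen and pump protons across the inner mitochondrial membrane, except complex II, which pumps none. Complex V, the ATP synthase, uses the proton gradient to make ATP. Mature red cells have lost their mitochondria, whereas platelets, leukocytes and reticulocytes keep them, and heart muscle is among the tissues richest in them. Several complex IV subunits exist as a widely expressed form and a form of heart and skeletal muscle, such as Cox6a1 and Cox6a2, Cox7a2 and Cox7a1, and Cox8a and Cox8b. A few genes that the rule takes are not plain subunits of the complex their name gives. Ndufa4 is now placed in complex IV, Cox7a2l is a supercomplex assembly factor, Atp5s and Atp5sl (Dmac2) are assembly proteins, and Atp5c1-ps is a pseudogene.

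All 85 genes were matched to RefSeq, 83 by the accession of the probe and 2 by symbol, and 69 had a promoter in the table used (a window that spans the transcription start, build GRCm38.p6). NRF1, a known activator of respiratory chain genes, binds GCATGCGC. These letters stood on either strand in a promoter of 10 of the 69 genes (14.5%) against 824 of 27025 genes (3.05%). The YY1 motif AAGATGGC was found in 11 (15.9%) against 3.19%, the GABP motif CCGGAAGT in 5 (7.25%) against 4.31%, and the ESRRA motif CAAGGTCA in 4 (5.80%) against 1.76%. A gene was counted once for a motif, whichever of its promoters and whichever strand held it, and 1 gene may have several motifs. These are matches of letters, not measured binding. The following 60-base windows show the NRF1 motif in capitals in 1 gene each of complexes I, II, IV and V.
Ndufa8, chr2:36049339-36049398, minus strand: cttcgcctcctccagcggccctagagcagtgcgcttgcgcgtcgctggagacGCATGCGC
Sdhb, chr4:140961191-140961250, plus strand: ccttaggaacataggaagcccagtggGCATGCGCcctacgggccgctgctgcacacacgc
Cox6a1, chr5:115349085-115349144, minus strand: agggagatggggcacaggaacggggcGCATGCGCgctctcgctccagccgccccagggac
Atp5l, chr9:44920933-44920992, minus strand: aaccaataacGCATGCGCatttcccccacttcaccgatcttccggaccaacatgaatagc

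The promoters of the isoform pairs of complex IV differ in CpG content, and are shown because the muscle forms had the largest differences after irradiation. Over the 100 bases before the start, the 75 promoters of members, some genes having several, had a median of 8 CpG dinucleotides and the 32851 promoters of the whole table a median of 3. Cox8b had 0 and Cox7a1 2, against 9 each for Cox8a and Cox7a2. The Cox6a2 promoter was not in the table. The 100 bases are shown with each CpG in capitals, for the pairs and for Cox5a and Cox7b, the members of complex IV called after irradiation.
Cox7a1, chr7:30184071-30184170, plus strand: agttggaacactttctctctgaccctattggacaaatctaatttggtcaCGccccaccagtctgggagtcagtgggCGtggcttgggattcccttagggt
Cox7a2, chr9:79759854-79759953, minus strand: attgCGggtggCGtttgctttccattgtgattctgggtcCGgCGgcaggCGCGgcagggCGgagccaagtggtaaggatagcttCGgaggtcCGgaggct
Cox8b, chr7:140900447-140900546, minus strand: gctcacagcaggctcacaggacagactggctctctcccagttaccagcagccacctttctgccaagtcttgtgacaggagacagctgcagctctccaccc
Cox8a, chr19:7217617-7217716, minus strand: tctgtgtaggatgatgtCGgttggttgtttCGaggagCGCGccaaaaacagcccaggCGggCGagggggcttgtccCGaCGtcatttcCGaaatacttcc
Cox5a, chr9:57521132-57521231, plus strand: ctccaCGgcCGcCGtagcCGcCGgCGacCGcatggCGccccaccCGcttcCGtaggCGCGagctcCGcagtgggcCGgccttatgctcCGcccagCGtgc
Cox7b, chrX:106015600-106015699, plus strand: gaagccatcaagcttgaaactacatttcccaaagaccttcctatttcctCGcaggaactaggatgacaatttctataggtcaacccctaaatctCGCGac

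Levels are log2 processed signals from which the median of the array was subtracted, and differences are log2 differences between group means with their standard error (SE) from limma. The threshold for calling a member was an unadjusted p of 0.001 together with an adjusted p of 0.1, by Benjamini-Hochberg over all 23069 probes tested. The study's methods describe male littermates handled together in time, and the labels give no litter for any mouse, so the p-values measure only the spread between these mice. The arrays differed in quality. Between 29.9% and 57.8% of spots stood well above background, and replicate 5 of the unirradiated WT group was the weakest array, with an SD of 0.889 between repeated spots. Replicates 1 and 2 lay closer than any other replicate pair in each group, with a robust SD of 0.112 to 0.184 between the same spots against 0.220 to 0.819 for the other pairs. Repeated spots of 1 array differed by 0.0843 to 0.0913, taking the larger of replicates 1 and 2 in each group. Over all arrays this ran from 0.0786 to 0.437. Replicates 1 and 2 were kept as separate mice, as labelled, and averaged in an alternative. The Il10 probe itself was higher on the arrays labelled Il10-/- than on those labelled WT. It was well above background on all arrays labelled Il10-/- (1.94 to 3.29) and on none labelled WT (−2.64 to −1.06), so every direction between genotypes rests on the labels. Whether the probe lies outside the altered part of the allele was not tested. Neutrophil genes stood higher on the unirradiated arrays labelled Il10-/-, with 4 of 7 called and a median difference of 1.52 over that of all probes. The 7 platelet genes were well above background on every array, and at least 6 of 7 neutrophil genes were. The 18 heart muscle genes ranged from a mean of −0.75 to 5.88 over arrays and the 13 liver genes from 0.25 to 11.1. B cell genes were lower after irradiation, with 6 of 7 called in each genotype. Comparisons that share a group share its 5 arrays.

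Few respiratory chain genes were called in any comparison. After 7 Gy, 1 of 83 members was called in WT mice (Cox5a, higher) and 2 of 83 in Il10-/- mice (Cox7b and Atp5l, lower), where 5.82% and 8.17% of all tested probes were called. Between genotypes, 0 of 83 were called at baseline and 0 of 83 after irradiation, where 0.551% and 0.00867% of all probes were called. The difference between the radiation responses was called for 0 of 83 members and 0% of all probes. At an unadjusted p under 0.05, the limma counts of members were 27 at baseline, 40 for the WT response, 20 for the Il10-/- response, 1 between irradiated genotypes and 16 for the difference between responses. Over all 23069 probes these were 3367, 5844, 7687, 2446 and 1570.

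The median level of the members against the median of the tested probes was followed on each array. In unirradiated WT mice it was 4.38, 4.17, 3.90, 4.21 and 3.73 for replicates 1 to 5. In irradiated WT mice it was 5.96, 5.85, 4.47, 4.54 and 4.67. Every irradiated WT array stood above every unirradiated one, and replicates 1 and 2 stood far above the others. In unirradiated Il10-/- mice the values were 4.82, 4.65, 4.3, 4.69 and 4.48, and in irradiated Il10-/- mice 5.35, 5.14, 4.39, 4.72 and 4.57. The Il10-/- groups overlapped, with replicates 1 and 2 again the highest of the irradiated mice. These replicates also had the highest means of the heart muscle genes, at 5.88 and 5.88 in WT and 5.73 and 5.77 in Il10-/- mice, and of the liver genes, at 11.1 and 11.1 in WT and 9.35 and 9.37 in Il10-/- mice. The part of such RNA in the member level was not tested.

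**Figure D1:**
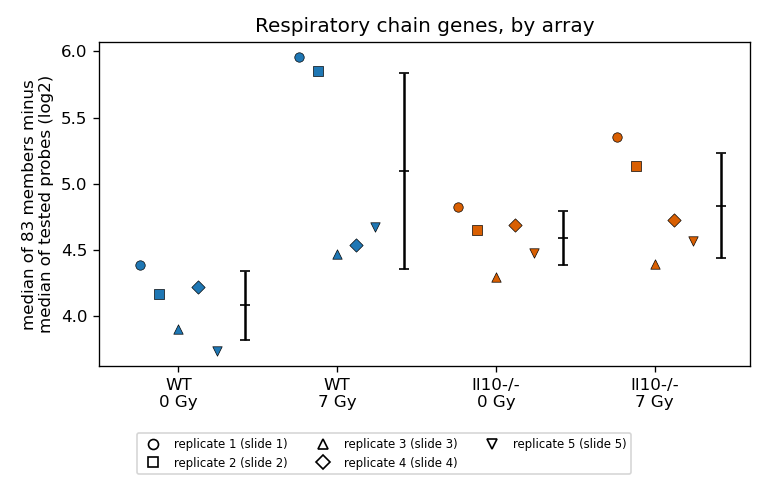
Median log2 level of the 83 tested members minus the median of all tested probes, for each array in the 4 groups. Symbols give the replicate (slide) and bars the mean ± SD of 5 arrays. In both irradiated groups replicates 1 and 2 stand highest, at 5.96 and 5.85 in WT and 5.35 and 5.14 in Il10-/- mice.

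At baseline, the members stood somewhat higher in unirradiated Il10-/- than in WT mice, with none called. The median difference was 0.34 above that of all probes, and 73 of 83 members lay above the all-probe median of 0.38. By complex, the medians over the all-probe value were 0.40 for I, 0.42 for II, 0.37 for III, 0.14 for IV and 0.18 for V. The groups did not overlap for 12 members, all higher in Il10-/-, a share to be set beside the 3.92% of all probes that did not overlap. The smallest p was that of Uqcrq, a small subunit of complex III, at 1.18 ± 0.40 (SE, adjusted p = 0.248 in limma).

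In complex I, Ndufb8 at 1.09 ± 0.42 and Ndufv3 at 1.08 ± 0.37 had the largest differences, and Ndufa3 was at 0.42 ± 0.40. The 3 Ndufv3 probes disagreed in sign, from −0.51 to 0.70 relative to all probes, and the probe used was the highest. Ndufa4l2, a hypoxia-responsive relative of Ndufa4, was well above background on 0 of 5 WT and 1 of 5 Il10-/- arrays, so no difference is given for it. The succinate dehydrogenase subunits of complex II were close to one another, with Sdhb at 0.87 ± 0.37, Sdhc at 0.85 ± 0.41, Sdha at 0.74 ± 0.39 and Sdhd at 0.72 ± 0.36. In complex III, Uqcrc2, a core subunit, was at 0.88 ± 0.39, and the hinge protein gene Uqcrh and Uqcr10 were lowest at 0.24 ± 0.39 and 0.49 ± 0.37. In complex IV, Cox5b stood at 1.22 ± 0.46. The muscle form Cox8b was not well above background in WT mice and has only a bound, given with the muscle forms. The lowest were Cox4i2 at −0.55 ± 0.50 and Cox6a2 at 0.06 ± 0.53. Among the ATP synthase genes, Atp5c1, the gamma subunit of the rotor, was at 1.19 ± 0.67 and Atp5d, the delta subunit, at 0.99 ± 0.37, while Atp5s and the catalytic beta subunit gene Atp5b were at −0.08 ± 0.40 and 0.07 ± 0.39. Other markers moved with the same comparison. Besides the neutrophil genes, the liver genes stood 3.55 above all probes with 1 of 13 called, and their means were 8.18 and 9.35 in Il10-/- replicates 3 and 4 against 0.25 to 1.91 in WT mice. The platelet genes stood 0.70 above all probes with 0 of 7 called. The part of these cells and of liver RNA in the member differences was not tested. On all 5 slides, 41 of 83 members were higher in the Il10-/- mouse and 0 were lower. That count takes differences as measured, with the all-probe value at 0.38, and the share over all probes was not counted.

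In the WT response to 7 Gy, the median member difference stood 0.84 above that of all probes (0.05), with 71 of 83 members above it. By complex the medians were 1.23 for II, 0.97 for I, 0.80 for III, 0.47 for V and 0.34 for IV. The groups did not overlap for 18 members, 17 of them higher after irradiation, beside 13.7% of all probes. On all 5 slides, 32 members were higher and 4 lower in the irradiated mouse, and the share over all probes was not counted. With the slide as a block, 5 members were called higher, Atp5g1, Cox5a, Ndufc1, Ndufs4 and Sdhc, where 7.27% of all probes were called. Without slides 1 and 2 the median was 0.28 over all probes and no member was called, where 3.48% of all probes were called. Members varied more between irradiated WT mice than other probes did, with a median SD of 0.737 against 0.442, whereas in irradiated Il10-/- mice the medians were 0.419 and 0.430. In the WT response the liver genes stood 6.88 above all probes, with 9 of 13 called higher. The heart muscle genes stood at 2.99 with 0 of 10 called, the platelet genes at 1.21 and the monocyte genes at 0.95. The B cell, red cell precursor, T cell and neutrophil genes stood at −2.96, −1.22, −0.45 and −0.02. The part of these cells and tissues in the member differences was not tested.

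Cox5a, a nuclear-coded subunit on the matrix side of cytochrome c oxidase, was the called member. Its level was 8.89, 8.93, 8.54, 8.83 and 7.48 in unirradiated WT mice and 10.20, 10.14, 9.80, 10.38 and 9.81 in irradiated WT mice. All 5 irradiated mice lay above all 5 unirradiated mice. This came to 1.53 ± 0.37 on the log2 scale (SE, limma adjusted p = 0.0149). Without overlap the irradiated mouse is higher on 5 of 5 slides by necessity, here by 1.21 to 2.33. The lowest unirradiated value came from the weakest array, and without that array the difference was 1.27 and still called. The call was lost without unirradiated replicate 1, 2 or 3, without any 1 irradiated mouse, without slides 1 and 2, with normexp, without the signal filter and with the 1.5-fold filter. Averaging replicates 1 and 2 of each group gave 1.60, which was not called. In Il10-/- mice Cox5a was 9.91, 9.86, 8.79, 8.93 and 9.06 before and 10.46, 10.17, 9.89, 10.36 and 9.97 after irradiation, a difference of 0.86 ± 0.26 (adjusted p = 0.0404) that was not called. The Il10-/- response less the WT response was −0.67 ± 0.43 (limma adjusted p = 0.700).

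In complex I, Ndufc1 and the NADH-binding flavoprotein gene Ndufv1 had the largest differences, 1.71 ± 0.48 and 1.64 ± 0.59, and Ndufb11 and the iron-sulfur subunit gene Ndufs1 the lowest, −0.08 ± 0.40 and −0.19 ± 0.48. Ndufc1 was 5.46, 5.36, 5.03, 4.78 and 3.70 before and 7.69, 7.48, 5.75, 5.77 and 6.22 after irradiation, with no overlap and with replicates 1 and 2 highest. Ndufs4, an accessory subunit named for missing the call narrowly after its values were seen, was at 1.58 ± 0.39 (limma adjusted p = 0.0178). Its levels were 6.00, 6.13, 5.83, 5.42 and 4.26 before and 7.31, 7.39, 6.86, 7.12 and 6.87 after irradiation, with no overlap. In complex II, Sdhc, a membrane anchor, was at 1.84 ± 0.51, followed by the iron-sulfur subunit Sdhb at 1.31 ± 0.49 and the anchor Sdhd at 1.26 ± 0.43. Sdha, the flavoprotein that oxidizes succinate, was at 0.36 ± 0.47. Sdhc levels were 4.43, 4.51, 4.34, 3.08 and 2.80 before and 6.67, 6.77, 5.07, 4.55 and 5.28 after irradiation. In complex III, Uqcrb was at 1.29 ± 0.42 and Uqcrq at 1.14 ± 0.51, with Uqcrh at −0.26 ± 0.36 and Uqcrc2 at 0.31 ± 0.46.

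The c subunit of the ATP synthase ring is encoded by 3 genes, Atp5g1, Atp5g2 and Atp5g3, with the same mature protein. In the WT response Atp5g1 was at 2.13 ± 0.63, Atp5g3 at 1.54 ± 0.48 and Atp5g2 at 0.58 ± 0.38, with none called unless the slide was a block, when Atp5g1 was. Atp5g1 levels were 6.85, 7.18, 7.01, 6.19 and 5.12 before and 10.22, 10.26, 7.80, 7.22 and 7.52 after irradiation in WT mice. The groups did not overlap, but replicates 1 and 2 were more than 2 log2 units above the other irradiated mice. In Il10-/- mice Atp5g1 was 7.19, 7.21, 7.30, 8.29 and 6.56 before and 9.43, 9.47, 7.20, 8.37 and 7.01 after irradiation, a difference of 0.99 ± 0.51 with overlap. The complex V genes Atp5b and Atp5s stood lowest in WT mice, Atp5b at −0.99 ± 0.35 and Atp5s at −0.95 ± 0.40, neither called. Atp5b was 10.53, 10.56, 10.60, 11.58 and 10.57 before and 10.14, 10.16, 9.52, 9.67 and 9.39 after irradiation in WT mice, without overlap.

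The Il10-/- response had a median member difference of 0.04 over that of all probes (−0.11), with 47 of 83 members above it. By complex the medians were 0.30 for II, 0.13 for I, 0.02 for IV, −0.10 for V and −0.12 for III. The groups did not overlap for 6 members, 1 higher (Ndufs4) and 5 lower (Atp5h, Atp5l, Atp5s, Cox7b and Uqcrh), beside 15.3% of all probes. On all 5 slides, 5 members were higher and 17 lower, and the share over all probes was not counted. With the slide as a block, 4 members were called lower, Atp5l, Atp5s, Cox7b and Ndufs1, where 6.39% of all probes were called. The 2 members called without the block fell, and are given here in full.

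Atp5l, the g subunit of the ATP synthase, which sits in the membrane part near the dimer interface, was 10.99, 10.83, 10.36, 10.20 and 11.22 in unirradiated Il10-/- mice and 9.53, 9.23, 9.15, 9.57 and 9.84 in irradiated ones. No irradiated mouse reached the lowest unirradiated one. The fitted value was −1.25 ± 0.24 on the log2 scale (SE, limma adjusted p = 0.00488). Without overlap the irradiated mouse is the lower on 5 of 5 slides by necessity. In WT mice the levels were 10.42, 10.32, 10.17, 11.39 and 9.66 before and 9.68, 9.58, 9.51, 9.86 and 9.50 after irradiation, a difference of −0.77 ± 0.36 that was not called (adjusted p = 0.201), and the responses differed by −0.48 ± 0.42. Atp5l has 6 probes on the array, and all 6 were called lower in Il10-/- mice, by 1.09 to 1.38 below the all-probe median. The probe positions given in the files (build mm9) lie on 5 chromosomes, so signal from near-identical copies and from the gene cannot be told apart. Stretches of 30 bases are shown for the probe used and the probe at the gene's own chromosome, with an 11-base run that 5 of the 6 probes share in capitals.
Probe at chrX:35750466-35750525, plus strand: aacgggactGCTATCTGAATaaaacactag
Probe at chr9:44721331-44721390, minus strand: aggactGCTATCTGAATaaaatactaggtg

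Cox7b, a small subunit of cytochrome c oxidase, was 9.93, 9.78, 8.93, 9.05 and 9.57 in unirradiated Il10-/- mice and 8.55, 8.30, 7.86, 8.27 and 8.49 in irradiated ones. The groups did not overlap. This was −1.16 ± 0.24 on the log2 scale (SE, limma adjusted p = 0.00807), and lower values on 5 of 5 slides follow from the lack of overlap. In WT mice Cox7b was 9.01, 9.12, 8.77, 10.06 and 8.15 before and 9.12, 8.98, 8.38, 8.78 and 8.50 after irradiation, a difference of −0.27 ± 0.39. Averaging replicates 1 and 2 left 0 members called in Il10-/- mice, Atp5l included, and so did leaving out slides 1 and 2. Of all probes, 4.13% and 2.02% were called in these settings. Red cell precursor markers were lower after irradiation in the same mice, with 6 of 9 called, and their mean level over arrays ranged from 6.38 to 7.67 before and from 4.87 to 5.97 after. In WT mice 4 of 9 of these markers were called lower. Their mean level there ranged from 6.45 to 8.19 before, highest in replicate 4, which also had the highest Cox7b and Atp5l, and from 5.01 to 6.29 after. The part of red cell precursors in these differences was not tested.

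**Figure D2:**
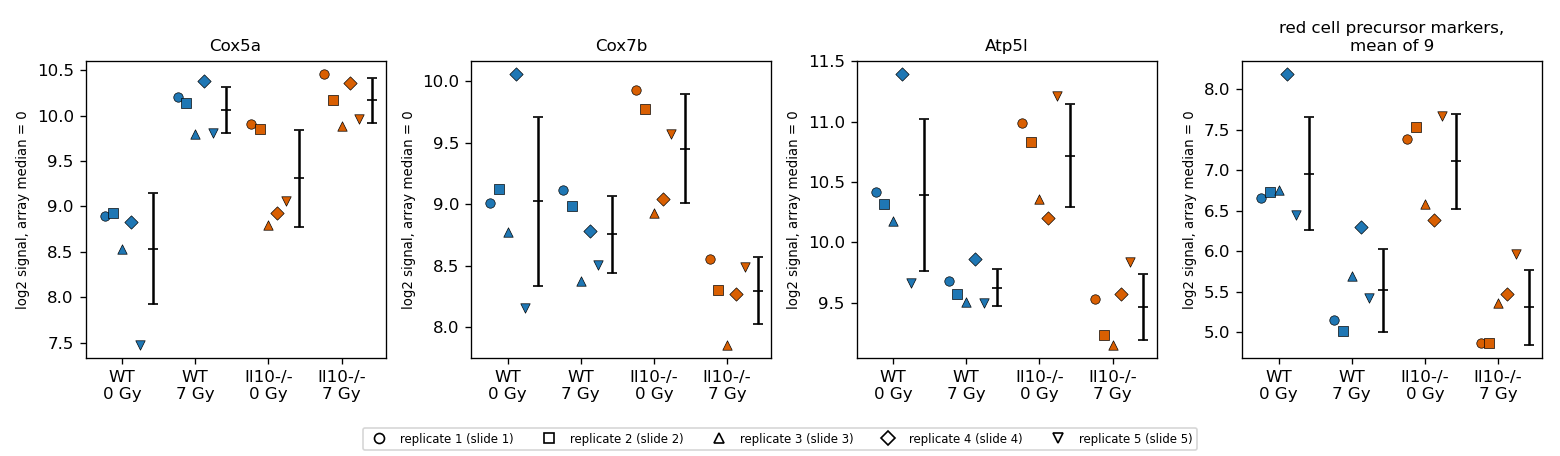
Levels of Cox5a, Cox7b and Atp5l and the mean of 9 red cell precursor markers on each array (log2 signal, array median at 0). Symbols give the replicate and bars the mean ± SD of 5 arrays. Cox5a is higher in irradiated WT mice, and Cox7b and Atp5l are lower in irradiated Il10-/- mice, without overlap.

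Among the other members, Ndufs1 at −1.29 ± 0.35 and Ndufb11 at −0.86 ± 0.28 were the lowest of complex I in Il10-/- mice, and Ndufs4 was at 0.77 ± 0.20. Ndufa4l2 had a fitted difference of 1.56 ± 0.43 that rests on background values, since it was well above background on 1 of 5 unirradiated and 2 of 5 irradiated arrays. Sdhc was at 0.66 ± 0.30, Sdhd at 0.26 ± 0.25, Sdhb at 0.12 ± 0.30 and Sdha at −0.51 ± 0.27. In complex III, Uqcrh was at −0.96 ± 0.27, Uqcrc2 at −0.67 ± 0.28, Uqcr11 at 0.14 ± 0.26 and Uqcrb at 0.22 ± 0.26. In complex V, Atp5b was at −0.95 ± 0.30, with Atp5o, the stalk subunit known as OSCP, at 0.45 ± 0.34, Atp5g3 at 0.33 ± 0.32 and Atp5g2 at 0.09 ± 0.18. None of these was called without the slide block. Ndufs1 was 6.84, 6.99, 5.44, 5.88 and 6.26 before and 5.53, 5.58, 4.38, 4.87 and 4.61 after irradiation, and the groups overlapped.

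**Figure D3:**
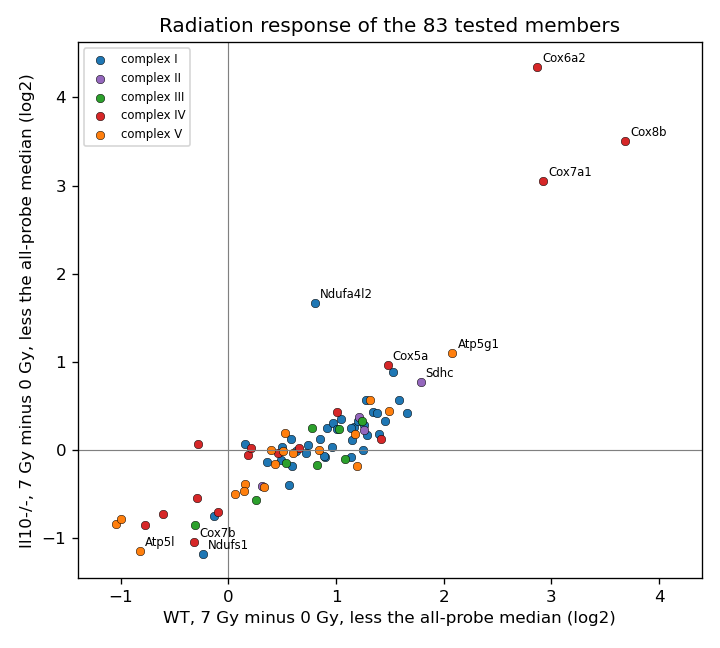
Radiation response (7 Gy minus 0 Gy, log2, less the median of all tested probes) of each of the 83 tested members in WT (x axis) and Il10-/- mice (y axis), coloured by complex. The axes share no arrays. Cox6a2 and Cox7a1 lie at 2.87 and 2.92 in WT and at 4.35 and 3.05 in Il10-/- mice. Cox8b and Ndufa4l2 are drawn at fitted values, but in WT mice they were not well above background before irradiation. They have only a bound between group means, without an error (at least 9.38-fold for Cox8b and 1.10-fold for Ndufa4l2).

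Muscle forms of complex IV had the largest differences after irradiation in both genotypes, and their spread between mice was large. Cox6a2 was 2.93, 2.93, 2.54, 3.88 and 1.67 in unirradiated and 9.90, 9.75, 6.43, 1.73 and 0.74 in irradiated WT mice, and 1.91, 1.93, 3.12, 2.55 and 4.75 in unirradiated and 9.57, 9.48, 6.51, 7.70 and 2.17 in irradiated Il10-/- mice. In the irradiated groups, 3 of 5 WT and 4 of 5 Il10-/- mice stood above every unirradiated mouse of their genotype and the rest did not. The differences were 2.92 ± 1.45 in WT (adjusted p = 0.226) and 4.24 ± 1.20 in Il10-/- mice (adjusted p = 0.0299), with neither called.

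Cox7a1 was 3.32, 3.33, 3.21, 4.56 and 3.02 before and 9.37, 9.14, 5.93, 4.03 and 3.83 after irradiation in WT mice, and 4.44, 4.21, 2.98, 3.06 and 4.63 before and 9.06, 8.74, 6.02, 6.68 and 3.51 after in Il10-/- mice. Replicates 1 and 2 were again the highest. The differences were 2.98 ± 0.94 and 2.94 ± 0.89. Cox8b was not well above background on any unirradiated WT array, and was at 7.89, 7.62, 4.14, −1.78 and −1.45 in irradiated WT mice, so that its mean there was at least 9.38-fold higher (3 of 5 arrays well above background). Irradiated WT replicates 4 and 5 lay within the unirradiated WT range of −1.84 to 1.16, and the difference was not called (limma adjusted p = 0.151). The bound compares group means, takes background values of the brighter group as measured and carries no error. In Il10-/- mice it was 3.70, 3.41, −0.92, −1.61 and 2.57 before and 7.43, 7.30, 4.31, 5.23 and −0.12 after irradiation, a difference of 3.40 ± 1.47. At baseline its mean was at least 2.60-fold higher in Il10-/- than in WT mice by the same bound, with 3 of 5 Il10-/- arrays well above background. Il10-/- replicates 3 and 4, at −0.92 and −1.61, lay within the WT range, and the difference was not called (limma adjusted p = 0.340).

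Their widely expressed partners had smaller differences. Cox6a1 was 12.09, 12.07, 12.20, 13.35 and 11.31 before and 11.77, 11.69, 11.41, 11.67 and 11.67 after irradiation in WT mice, with overlap. Its difference was −0.56 ± 0.38 in WT and −0.84 ± 0.27 in Il10-/- mice after irradiation, Cox7a2 at −0.05 ± 0.38 and −0.82 ± 0.32, and Cox8a at 0.27 ± 0.37 and −0.09 ± 0.24. Of the other isoform pairs, Cox4i1 was at 0.70 ± 0.41 and −0.09 ± 0.24 and the lung form Cox4i2 at −0.23 ± 0.53 and −0.04 ± 0.23. Cox6b1 was at 1.06 ± 0.36 and 0.32 ± 0.24 and the testis form Cox6b2 at −0.73 ± 0.43 and −0.96 ± 0.47. None was called. The mean of the heart muscle genes was 0.95, 0.82, −0.56, 1.45 and 0.29 in unirradiated and 5.88, 5.88, 3.11, −0.04 and −0.03 in irradiated WT mice. In Il10-/- mice it was −0.75, −0.75, −0.69, −0.58 and 2.16 before and 5.73, 5.77, 3.44, 3.91 and 0.97 after irradiation. On irradiated arrays where the heart genes were high, 12 to 17 of the 18 markers stood well above background. On unirradiated arrays 2 to 12 did in WT and 5 to 13 in Il10-/- mice. The part of heart muscle RNA in the Cox6a2, Cox7a1 and Cox8b levels was not tested.

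**Figure D4:**
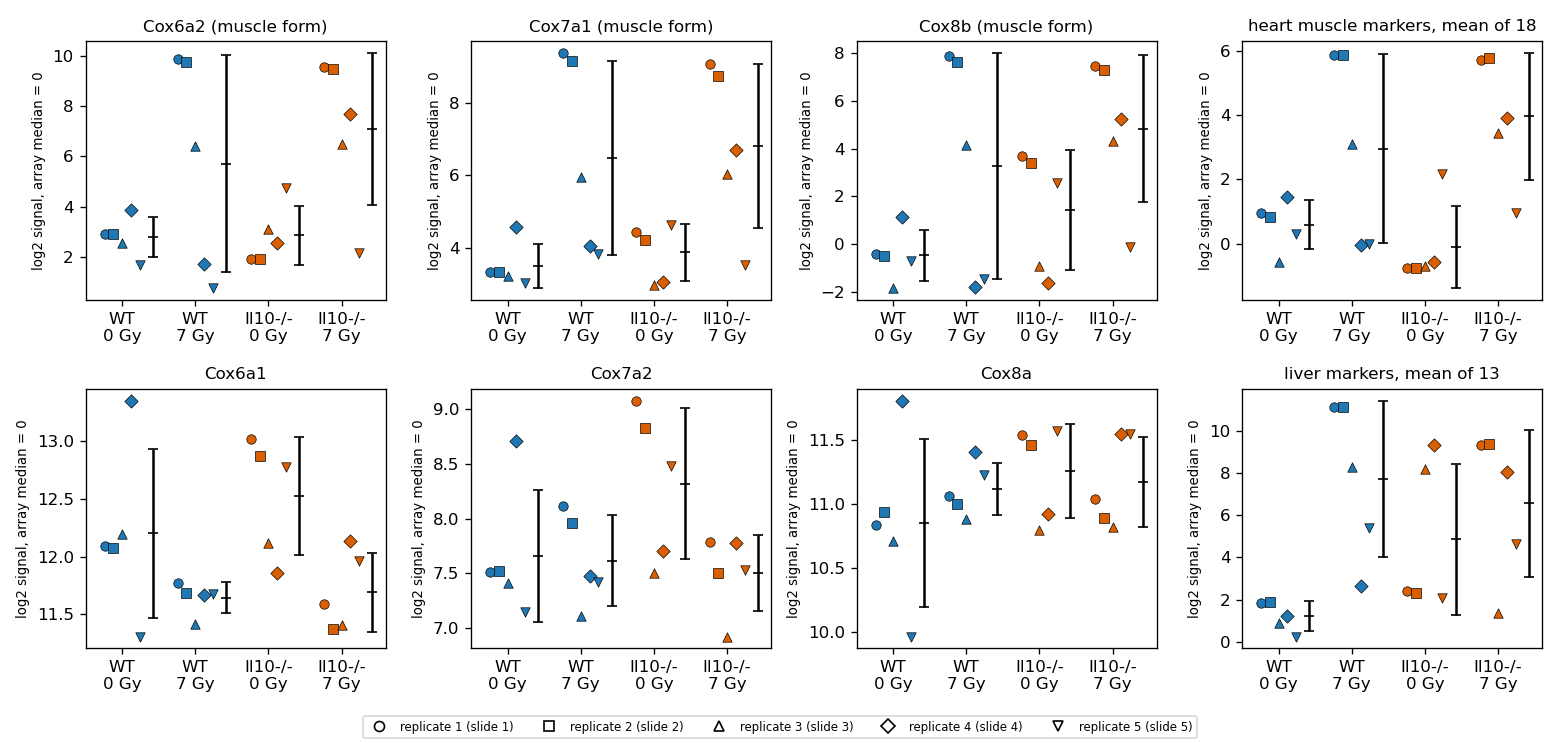
Levels on each array (log2 signal, array median at 0) of 3 muscle forms of complex IV (top) and their widely expressed partners (bottom), with the means of 18 heart muscle and 13 liver genes at the right. Symbols give the replicate and bars the mean ± SD of 5 arrays. Cox6a2, Cox7a1 and Cox8b are high on the irradiated arrays where the heart muscle genes are high, such as replicates 1 and 2. On unirradiated Il10-/- arrays they did not all go together. Cox8b was 3.70, 3.41, −0.92, −1.61 and 2.57 there, and the heart muscle mean −0.75, −0.75, −0.69, −0.58 and 2.16.

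After irradiation the genotypes were close. The median member stood 0.27 lower in Il10-/- than in WT mice relative to all probes, with 10 of 83 above the all-probe median, and 0 members without overlap, beside 2.65% of all probes. This median was −0.06 without irradiated WT replicate 1, −0.07 without replicate 2, −0.03 without slides 1 and 2 and −0.77 with normexp. The lowest of complex I were Ndufb2 at −0.54 ± 0.51 and Ndufc2 at −0.46 ± 0.32, and the highest Ndufa3 at 0.18 ± 0.25 and Ndufa1 at 0.16 ± 0.19. Complex II lay between −0.32 ± 0.46 (Sdhc) and −0.13 ± 0.40 (Sdha). In complex III, Uqcrh was at −0.46 ± 0.20 and Uqcr10 at −0.35 ± 0.35, with Uqcr11 at −0.05 ± 0.35. In complex V, Atp5k, the e subunit, was at −0.35 ± 0.34 and Atp5c1 at −0.35 ± 0.26. Uqcrh had the smallest p of the members, with a limma adjusted p of 0.459. Cox8b at 1.55 ± 2.13 and Cox6a2 at 1.38 ± 2.00 had the largest differences and the largest errors.

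The responses themselves differed by a median of −0.62 below the all-probe value of −0.25, with 8 of 83 members above that value. It was −0.40 without irradiated WT replicate 1 and −0.26 without slides 1 and 2. No member was called, and 37 of 83 were lower on all 5 slides. That count takes differences as measured, with the all-probe value at −0.25, and the share over all probes was not counted. In the same contrast the liver genes stood at −4.98 and the heart muscle genes at 1.93 relative to all probes, and their part was not tested. The lowest in complex I were Ndufb2 at −1.41 ± 0.63 and Ndufc1 at −1.41 ± 0.59, in complex II Sdhb at −1.19 ± 0.59, in complex III Uqcrq at −1.35 ± 0.60 and the Rieske protein gene Uqcrfs1 at −1.15 ± 0.65, in complex IV Cox5b at −1.45 ± 0.62, and in complex V Atp5c1 at −1.54 ± 0.82. Their adjusted p-values were all above 0.69. The Atp5c1 value includes unirradiated WT replicate 5, the weakest array, at 3.15. Relative to all probes, the Atp5c1 probe used stood at −1.29 and its other probe at −0.57. Ndufb6 had the smallest unadjusted p of the members, with the same adjusted p of 0.694 as several others.

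Of the 23 members with several probes, the probes differed in the sign of the difference from all probes for 3 in the WT response and 2 in the Il10-/- response, with median spreads of 0.15 and 0.10. At baseline the sign differed for 6, with a median spread of 0.17. It differed for 4 between irradiated genotypes and for 2 in the difference between responses. Ndufv3 spread the most, over 1.68 in the WT response, and Cox7c over 0.92. For 9 of the 85 members the probe used lies on another chromosome in mm9 than the gene does in RefSeq, and 7 have no position in the files, Cox5a among them.

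Genes that feed or build the chain are given with their calls, to be read beside the 5.82% of all probes called in the WT and 8.17% in the Il10-/- response. Of 39 assembly factors tested, 0 were called in any comparison, with medians of 0.84 in WT and 0.12 in Il10-/- mice over the all-probe value after irradiation. The tricarboxylic acid cycle, which supplies NADH and succinate, had 0 of 17 called, with medians of 0.87 and −0.01. Of 13 carriers and electron entry genes, 1 was called, Etfb, the beta subunit of the electron transfer flavoprotein, higher in WT mice by 2.67 ± 0.60. Of 13 regulators of mitochondrial biogenesis, 1 was called, Gabpb2, a GABP subunit, lower in Il10-/- mice by 1.01 ± 0.22 on the log2 scale, and the list medians were −0.29 and −0.35. At baseline the medians were 0.26 for assembly factors, 0.36 for the cycle, 0.35 for carriers and 0.15 for regulators.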

How the data were processed

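The files deposited for each array came from Agilent Feature Extraction (10.7 per the labels, 12.0.2.2 per the file headers). The column used holds the processed intensity per spot, which that software background-subtracted before the authors deposited it. They also deposited a table of log2 values, used only as an alternative. Non-uniform outlier spots were dropped, log2 taken, repeated spots averaged and the median of 39429 non-control probes subtracted from each array. A probe was removed if at least 25% of arrays marked it as an outlier or as undetected. Differences were fitted with limma 3.58.1 in R 4.3.3 for each comparison on its 10 arrays, and on all 20 for the difference between responses. The study's filter on 1.5-fold variation was left out of the main result and tried as an alternative. Figures were drawn with matplotlib 3.10.9.

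The number of arrays limits the precision. The fit was tested on simulated data. The members and the gene lists were chosen with earlier results of these data known. Genes named are those called, the 2 largest rises and falls in each complex, the isoform pairs of complex IV and the c subunit genes, with called genes of the other lists. The 5 slides each hold 1 array of every group, 1 scan and 1 replicate number. Deviations of arrays with the same number correlated by −0.65 to 0.68, and in no pair of groups were all 5 over 0.1, so the numbers were not taken to pair mice, and the slide was blocked as an alternative.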

Additional observations from a re-analysis of the deposited data

Results flagged for a closer look

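In 17 results (the median of the members, the called members, the isoform pairs and the c subunit genes) each of the 4 groups was searched for 1 array far from the other 4, by a gap larger than chance gives in about 1 of 20 groups, and 6 of the 68 group values were found. In unirradiated WT mice, replicate 5, the weakest array, was low for Cox5a (7.48, the next array at 8.54) and Atp5g2 (7.21, the next at 8.41). Replicate 4 of the same group was high for Cox6b2 (9.0, the next at 7.48), Cox7a1 (4.56, the next at 3.33) and Cox7a2 (8.71, the next at 7.52), and also had the highest mean of the red cell precursor markers of that group, 8.19. In unirradiated Il10-/- mice, replicate 5 was high for Cox4i2 (4.05, the next at 3.36).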

How the results depend on the processing

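No called member changed direction under any alternative run. The count of members called changed with most of them. In WT mice it was 0 with normexp, without the signal filter, with the 1.5-fold variation filter, with replicates 1 and 2 averaged and, chosen after seeing the data, without slides 1 and 2. It was 2 with the 75th percentile, with quantile normalisation and with the mean over a gene's probes, 3 with the authors' table and (chosen after seeing the data) their array constants, 4 with array weights, 5 with all 20 arrays in 1 fit, 5 with the replicate number (slide) as a block, and 6 at an adjusted p under 0.05 alone. In Il10-/- mice it was 0 with normexp, with replicates 1 and 2 averaged and without slides 1 and 2, 1 without the filter and with all arrays, 4 with quantile normalisation, 4 with the slide block, 12 at an adjusted p under 0.05 alone and 20 with array weights. At an adjusted p under 0.05 alone, 11.4% of all probes were called in WT and 19.3% in Il10-/- mice. These shares were 7.33% and 8.96% with quantile normalisation, and 9.72% and 5.56% with all 20 arrays in 1 fit. They were 1.64% and 0% with normexp, 3.38% and 4.13% with replicates 1 and 2 averaged, and 3.48% and 2.02% without slides 1 and 2. Without the signal filter they were 3.66% and 4.65%, and with the 1.5-fold filter 6.78% and 9.13%. With the 75th percentile they were 8.07% and 8.81%, and with the mean over a gene's probes 5.94% and 8.08%. The authors' table gave 10.5% and 10.8%, their array constants 9.18% and 10.1%, and the slide block 7.27% and 6.39%. With array weights the shares were 18.2% and 27.9%. Array weights also called 54 members at baseline and 4 for the difference between responses, where 16.2% and 1.87% of all probes were called. In those fits replicates 1 and 2, 40% of the arrays, carried 65.1% to 88.8% of the weight. The slide block changed no other count.

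With each array omitted in turn there were 0 to 2 calls in WT and 1 to 6 in Il10-/- mice, and 0 in the other comparisons. Of all probes, 3.98% to 7.68% were called in WT and 5.59% to 7.62% in Il10-/- mice, and at most 0.516% in the other comparisons. The WT median ran from 0.61 to 1.03, the baseline median from 0.31 to 0.39, the Il10-/- median from −0.04 to 0.13, that between irradiated genotypes from −0.42 to −0.06, and that of the difference between responses from −0.81 to −0.40. Cox5a was called in 11 of 24 alternatives, Atp5l in 21 and Cox7b in 13. Cox5a was not called without WT 0 Gy replicate 1, 2 or 3 or without any 1 irradiated WT mouse. Cox7b was not called without unirradiated Il10-/- replicate 1, 2 or 5 or irradiated replicate 2, 3 or 4. The WT median was 1.36 with normexp and 0.28 without slides 1 and 2, the difference between responses −1.09 without the filter and −1.36 with normexp, and the irradiated genotypes −0.77 with normexp. Other settings made medians smaller or turned them. The difference between responses was −0.33 with quantile normalisation and −0.26 without slides 1 and 2. The irradiated genotypes were at −0.01 with array weights and −0.03 without slides 1 and 2. The Il10-/- median was −0.41 without the filter, −0.15 with normexp and 0.24 with quantile normalisation, and has no settled direction. The baseline median was 0.13 with quantile normalisation, 0.63 with normexp and 0.79 without the filter. The cause was not tested.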
